A study of Homo sapiens with 12 samples.

Results

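The 6 genes described here are TXNIP, ARRDC4, ARRDC3 and ARRDC2, which encode alpha-arrestins, and MLXIP and MLX, which encode the glucose-sensing transcription factor MondoA and its partner. They were chosen by name, with their response to SAHM1 in these arrays already known, and are measured by 16 of the 54675 probe sets of the array and by 6 of 19775 genes. The study exposed KOPT-K1 and HPB-ALL, each an established human T-cell acute lymphoblastic leukaemia line, to 20 µM SAHM1 or to an equal amount of its vehicle DMSO for 24 hours, with 3 cultures and 3 arrays in each of the 4 groups. SAHM1 is a hydrocarbon-stapled peptide derived from the co-activator mastermind-like and designed to block the NOTCH transcription complex. All groups were kept in RPMI medium with fetal bovine serum and antibiotics in multiwell plates, and each line is 1 leukaemia grown in culture. P-values measure the spread between cultures of the same experiment.

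MondoA, encoded by MLXIP, and its relative ChREBP, encoded by MLXIPL, pair with MLX and enter the nucleus when glucose-6-phosphate accumulates. The pair binds carbohydrate response elements, which repeat an E-box-like site, and TXNIP and ARRDC4 are its best-known targets. TXNIP binds and inhibits thioredoxin, and it draws glucose transporters from the membrane, so that glucose uptake falls. Alpha-arrestins can also bring NEDD4-family ubiquitin ligases to membrane proteins. In T-cell leukaemia TXNIP is known as a gene that restrains glucose use and rises with glucocorticoids.

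The deposited value of a probe set is its ratio to the mean of the 3 DMSO arrays of the same line. All values below are log2 of that ratio, averaged over the probe sets of a gene, so that 0 is the DMSO mean and 1 is a doubling. Expression levels are lost on this scale: the T-lineage identity of the lines, the level of a member in DMSO and the level of any member against another cannot be read. Fewer cells of a kind and less RNA per cell cannot be told apart in such bulk samples. Differences are SAHM1 minus DMSO ± the standard error from limma, n = 3 arrays per group.

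The stretches upstream of the TXNIP, ARRDC4 and ARRDC3 genes are shown because these 3 members differed most from DMSO, each in a different way. Each is the 250 bases before the annotated start in RefSeq (GRCh38.p14), written 5′ to 3′ on the strand of the gene; capitals mark each match, on either strand, to CACGTG (an E-box), the paired sites of a carbohydrate response element (CACGNG repeated after a gap of any 5 bases), CCAAT (NF-Y), TGGGAA (the core bound by the NOTCH partner RBPJ) or GTAAACA (FOXO). TXNIP lies on chromosome 1 from 145992435 to 145996579, ARRDC4 on chromosome 15 from 97960703 to 97973833 and ARRDC3 on chromosome 5 from 91368631 to 91383317. The windows are chr1:145996580-145996829 on the minus strand, chr15:97960453-97960702 on the plus strand and chr5:91383318-91383567 on the minus strand.
TXNIP: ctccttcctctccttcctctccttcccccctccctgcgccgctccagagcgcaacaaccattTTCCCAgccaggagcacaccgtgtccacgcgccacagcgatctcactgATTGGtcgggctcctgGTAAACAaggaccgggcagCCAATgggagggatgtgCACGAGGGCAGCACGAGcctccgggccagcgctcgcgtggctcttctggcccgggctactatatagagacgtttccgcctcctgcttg
ARRDC4: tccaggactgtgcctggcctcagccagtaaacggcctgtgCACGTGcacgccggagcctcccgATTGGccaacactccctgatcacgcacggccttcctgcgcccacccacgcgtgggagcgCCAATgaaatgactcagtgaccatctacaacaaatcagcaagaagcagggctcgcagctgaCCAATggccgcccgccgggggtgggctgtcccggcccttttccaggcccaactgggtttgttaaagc
ARRDC3: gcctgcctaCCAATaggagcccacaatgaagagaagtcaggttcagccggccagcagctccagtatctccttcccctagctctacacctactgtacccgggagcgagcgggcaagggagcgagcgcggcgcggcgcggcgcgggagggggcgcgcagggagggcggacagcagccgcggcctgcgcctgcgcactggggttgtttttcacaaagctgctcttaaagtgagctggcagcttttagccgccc

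The TXNIP window held the paired sites, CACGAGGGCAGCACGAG, at 88 to 72 bases before the start. This pattern occurs in 16 of 35116 windows of the same length (0.0456%). The window also held CCAAT at 105 to 101 bases, the same motif on the opposite strand at 140 to 136 bases, GTAAACA at 124 to 118 bases, and TGGGAA on the opposite strand at 188 to 183 bases. The respective shares of all windows with these letters were 32.0%, 2.98% and 20.8%. The ARRDC4 window held no paired sites in these letters. It held CACGTG at 210 to 205 bases, which 6.34% of windows hold, and 3 CCAAT matches at 187 to 183 (opposite strand), 128 to 124 and 67 to 63 bases. The ARRDC3 window held CCAAT alone, at 241 to 237 bases. Elsewhere among the members, the MLX window (chromosome 17) held CACGTG at 50 to 45 bases and CCAAT on the opposite strand at 66 to 62 bases, and the MLXIP window (chromosome 12) held CCAAT on the opposite strand at 76 to 72 bases. A second RefSeq start of TXNIP (window chr1:145995745-145995994) and the first start of ARRDC2 (chromosome 19) held no match. A second start of ARRDC3 had GTAAACA on the opposite strand at 29 to 23 bases. A second start of ARRDC2 had CCAAT on the opposite strand at 93 to 89 bases. These are matches of letters and not measured binding sites.

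The arrays carry the following facts that touch every result. HES1, HES4 and DTX1, direct NOTCH targets, were lower with SAHM1 in both lines, with differences of -0.69 ± 0.05, -1.24 ± 0.10 and -0.86 ± 0.09 for KOPT-K1, then -0.59 ± 0.05, -1.24 ± 0.10 and -1.30 ± 0.09 for HPB-ALL (limma, Benjamini-Hochberg adjusted p from 4.49e-06 to 1.05e-04). The HPB-ALL arrays differed in the signal of the 18S ribosomal RNA control probe sets: the DMSO arrays stood at 1.05, -1.01 and -1.65 and the SAHM1 arrays at 1.73, 1.89 and 1.35. In KOPT-K1 the 18S mean with SAHM1 differed by -0.26. The hybridization spikes, added after labelling, differed with SAHM1 by 0.78 (KOPT-K1) and -0.37 (HPB-ALL). In HPB-ALL 1 DMSO array stood at 0.60 on this scale and the others at -0.44 and -0.47. The 5′ minus 3′ signal of ACTB, a sign of RNA integrity, differed with SAHM1 by -0.17 (KOPT-K1) and -0.24 (HPB-ALL). Markers of other lineages are known only as changes: of 5 measured T-lineage markers 0 were called in KOPT-K1 and 2 fell in HPB-ALL, of 3 B-lineage markers 1 rose in KOPT-K1, and of 4 myeloid markers and 1 erythroid marker 0 were called in either line. The part of RNA quality and of other cells in the results was not tested.

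Across all genes, 19% were called at an adjusted p under 0.05 in KOPT-K1 (5.85% higher and 13.2% lower) and 9.34% in HPB-ALL (4.96% higher and 4.38% lower). The members' contrast is the one they were chosen on, so their counts beside these shares are descriptions and nothing is read from them. In KOPT-K1, 2 of the 6 members (TXNIP and ARRDC3) were lower past that threshold and 0 were higher. In HPB-ALL, 2 members (TXNIP and ARRDC4) were higher past it and 0 were lower. The SAHM1 arrays of 2 members lay below all DMSO arrays in KOPT-K1; in HPB-ALL those of 2 members lay above and those of 2 (MLX and MLXIP) below. Over all genes, SAHM1 and DMSO arrays did not overlap for 35.1% in KOPT-K1 and 29.1% in HPB-ALL. The member differences ran from -1.06 to 0.03 in KOPT-K1, median -0.06, and from -0.41 to 1.30 in HPB-ALL, median 0.00301, where the medians over all genes were 1.99e-05 and -0.02.

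**Figure D1:**
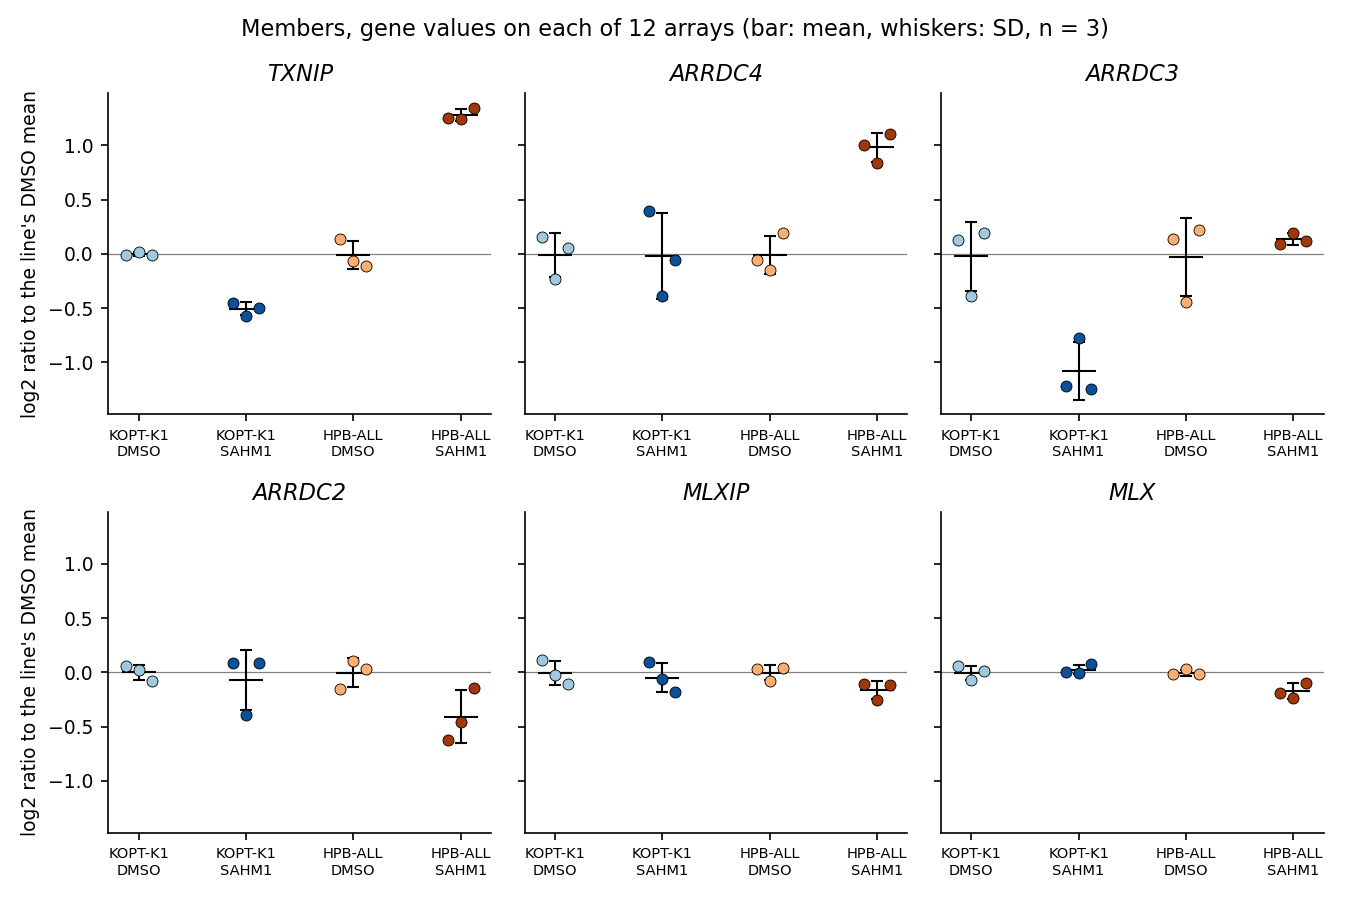
Log2 ratio to the DMSO mean of the line (y axis) for the 6 members on each of the 12 arrays, by line and treatment (x axis); points are arrays, bars the mean and whiskers the SD of 3 arrays. TXNIP lies between -0.57 and -0.45 on the SAHM1 arrays of KOPT-K1, and between 1.24 and 1.34 on those of HPB-ALL; ARRDC4 stands apart from DMSO in HPB-ALL and ARRDC3 in KOPT-K1.

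The sensor genes had small differences, none past the threshold as gene values. MLXIP, which encodes MondoA, stood at 0.11, -0.02 and -0.10 on the DMSO arrays of KOPT-K1 and at 0.09, -0.06 and -0.18 with SAHM1. In HPB-ALL it stood at 0.03, -0.08 and 0.04 with DMSO and at -0.11, -0.26 and -0.12 with SAHM1. The groups overlapped in KOPT-K1, whereas in HPB-ALL all SAHM1 arrays were below all DMSO arrays. The differences were -0.05 ± 0.08 and -0.16 ± 0.08.

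MLX encodes the partner that MondoA and ChREBP need to bind DNA. In KOPT-K1 it stood at 0.06, -0.07 and 0.01 with DMSO and at 0.01, -0.00 and 0.08 with SAHM1, overlapping groups with a difference of 0.03 ± 0.06. In HPB-ALL it stood at -0.02, 0.03 and -0.02 with DMSO and at -0.19, -0.23 and -0.10 with SAHM1. All SAHM1 arrays lay below DMSO there, with a difference of -0.17 ± 0.06. The 6 MLX probe sets did not move as 1: in HPB-ALL their differences ran from -0.42 (217909_s_at, past the threshold) to -0.01 (1570347_at), and in KOPT-K1 from -0.34 (210752_s_at) to 0.38 (231401_s_at, past the threshold). The KOPT-K1 value of 231401_s_at came largely from SAHM1 replicate 2, at 0.71 against 0.16 and 0.26 on the others. That of 210752_s_at came largely from the same array, at -0.71 against -0.16 and -0.16. The 4 MLXIP probe sets had differences of -0.21 to 0.07 (KOPT-K1) and -0.27 to -0.01 (HPB-ALL), none past the threshold.

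TXNIP, the thioredoxin-binding arrestin, went in opposite directions in the 2 lines. In KOPT-K1 it stood at -0.01, 0.02 and -0.01 with DMSO and at -0.45, -0.57 and -0.50 with SAHM1. In HPB-ALL it stood at 0.13, -0.07 and -0.11 with DMSO and at 1.26, 1.24 and 1.34 with SAHM1. Treated and untreated arrays were separate in both lines, below DMSO in KOPT-K1 and above it in HPB-ALL. The differences were -0.50 ± 0.07, or 1.42-fold lower, and 1.30 ± 0.07, or 2.46-fold higher. The response of HPB-ALL minus that of KOPT-K1 was 1.80 ± 0.10. Among 19775 genes the TXNIP difference ranked 8 from the highest in HPB-ALL and 508 from the lowest in KOPT-K1.

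All 3 TXNIP probe sets carried both directions. The differences in KOPT-K1 were -0.61 ± 0.15 for 201008_s_at, -0.61 ± 0.08 for 201009_s_at and -0.30 ± 0.09 for 201010_s_at. In HPB-ALL they were 1.51 ± 0.15, 1.20 ± 0.08 and 1.18 ± 0.09 in the same order. A wide scatter was seen for 201008_s_at on the HPB-ALL DMSO arrays, at 0.41, -0.27 and -0.25; the high value is on the DMSO array with the high 18S signal. Without that array the TXNIP difference in HPB-ALL was 1.37 ± 0.06. All 3 carry the suffix of probe sets that can match several transcripts, so TXNIP cannot be measured without such sets.

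Over the 16 member probe sets, 1 was higher and 4 lower past the threshold in KOPT-K1, where 14.6% of all probe sets were called, and 4 were higher and 1 lower in HPB-ALL, where 5.15% were. The SAHM1 arrays lay above all DMSO arrays for 1 and below for 5 member probe sets in KOPT-K1, and above for 4 and below for 5 in HPB-ALL. Over all probe sets, 30.9% and 24.9% did not overlap.

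**Figure D2:**
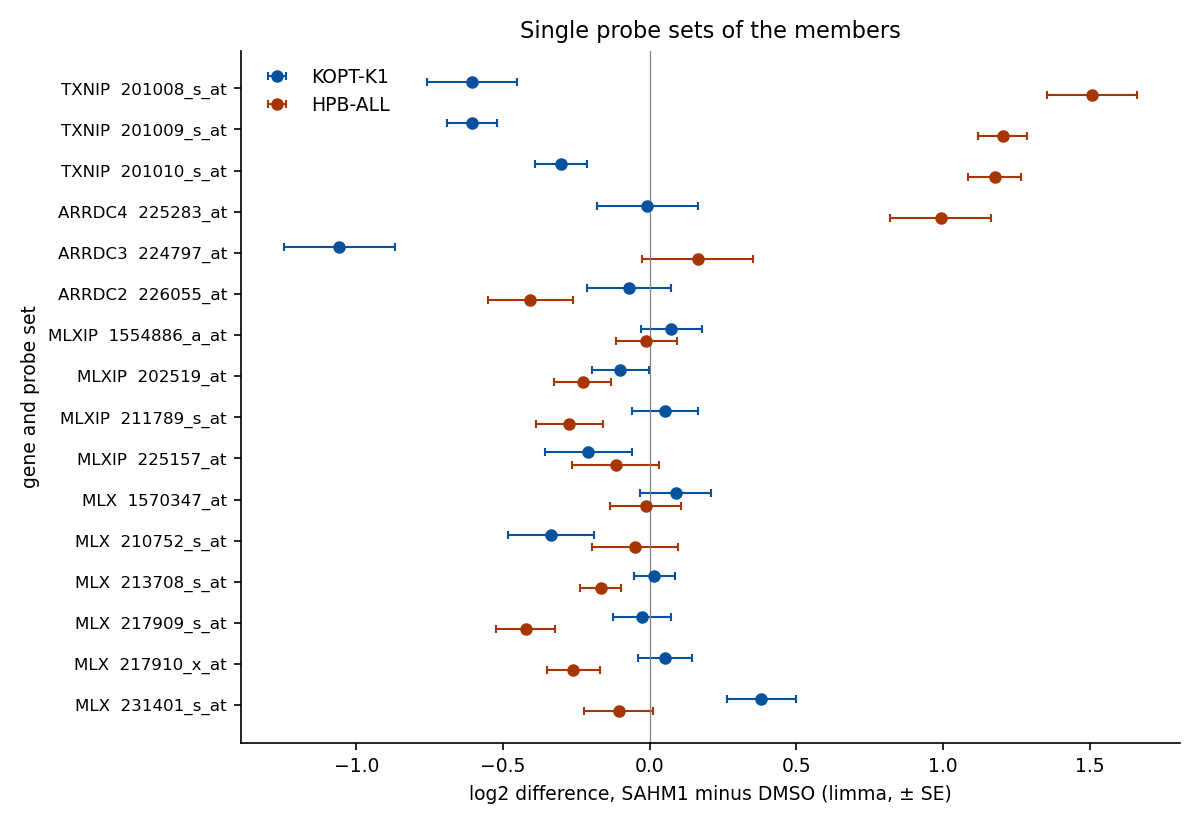
Log2 difference, SAHM1 minus DMSO, for each of the 16 probe sets (x axis, limma ± SE; y axis, gene and probe set) in KOPT-K1 (blue) and HPB-ALL (brown). The 3 TXNIP probe sets lie between -0.61 and -0.30 in KOPT-K1 and between 1.18 and 1.51 in HPB-ALL, while the 6 MLX probe sets scatter on both sides of 0 in KOPT-K1.

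ARRDC4, the other well-known MondoA target among the arrestins, was higher in HPB-ALL. It stood there at -0.06, -0.15 and 0.19 with DMSO and at 1.01, 0.84 and 1.11 with SAHM1. In KOPT-K1 it stood at 0.15, -0.23 and 0.05 with DMSO and at 0.39, -0.39 and -0.05 with SAHM1. All HPB-ALL SAHM1 arrays lay above DMSO, and the KOPT-K1 arrays overlapped with the SAHM1 arrays the wider. The difference was 0.99 ± 0.17 in HPB-ALL, or 1.99-fold, and -0.01 ± 0.17 in KOPT-K1, and the difference between lines was 1.00 ± 0.24. Its rank among all genes in HPB-ALL was 21 from the highest. In KOPT-K1 the value moved between -0.21 and 0.18 when 1 array was left out, and to 0.25 with the spike level as a covariate. ARRDC4, ARRDC3 and ARRDC2 each rest on 1 probe set, so agreement between probe sets cannot be checked for them.

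ARRDC3, an alpha-arrestin linked to the turnover of beta-adrenergic receptors and integrins, was lower in KOPT-K1. There it stood at 0.13, -0.39 and 0.19 with DMSO and at -1.21, -0.77 and -1.25 with SAHM1. In HPB-ALL it stood at 0.14, -0.44 and 0.22 with DMSO and at 0.09, 0.20 and 0.12 with SAHM1. The KOPT-K1 SAHM1 arrays were all below DMSO, and the HPB-ALL arrays overlapped; in both lines 1 DMSO array lay well under the others. The differences were -1.06 ± 0.19, or 2.08-fold lower, and 0.16 ± 0.19, and 1.22 ± 0.26 between lines. In KOPT-K1 the gene ranked 45 from the lowest. Without the low DMSO array the differences were -1.24 ± 0.18 in KOPT-K1 and -0.04 ± 0.17 in HPB-ALL.

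ARRDC2, an alpha-arrestin whose role is less well known, was not past the threshold in either line. It stood at 0.06, 0.02 and -0.08 with DMSO and at 0.09, -0.39 and 0.09 with SAHM1 in KOPT-K1. In HPB-ALL it stood at -0.15, 0.11 and 0.03 with DMSO and at -0.63, -0.46 and -0.15 with SAHM1. The groups overlapped in both lines, in HPB-ALL through 1 SAHM1 array at the level of the lowest DMSO array. The differences were -0.07 ± 0.14 and -0.41 ± 0.14, the latter at rank 296 from the lowest.

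The 3 arrestin genes with the widest differences each showed another pattern: TXNIP lower in KOPT-K1 and higher in HPB-ALL, ARRDC4 higher in HPB-ALL with overlapping arrays in KOPT-K1, and ARRDC3 lower in KOPT-K1 with overlapping arrays in HPB-ALL. The size of these values depended on the scaling. With all arrays forced to the same distribution, TXNIP was at -0.31 ± 0.08 in KOPT-K1 and 0.91 ± 0.08 in HPB-ALL, ARRDC4 at 0.69 ± 0.18 in HPB-ALL and ARRDC3 at -0.59 ± 0.25 in KOPT-K1. With the 18S level as a covariate, TXNIP in HPB-ALL was at 1.13 ± 0.10, ARRDC4 at 1.21 ± 0.28 and ARRDC2 at -0.14 ± 0.22. With the spike level as a covariate, TXNIP was at -0.44 ± 0.10 and ARRDC3 at -0.66 ± 0.23 in KOPT-K1, and TXNIP at 1.26 ± 0.08 in HPB-ALL. These 4 differences (TXNIP in each line, ARRDC4 in HPB-ALL and ARRDC3 in KOPT-K1) kept their sign in these fits. The sign is given as a description: 18S in HPB-ALL and spikes in KOPT-K1 did not overlap between SAHM1 and DMSO arrays.

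**Figure D3:**
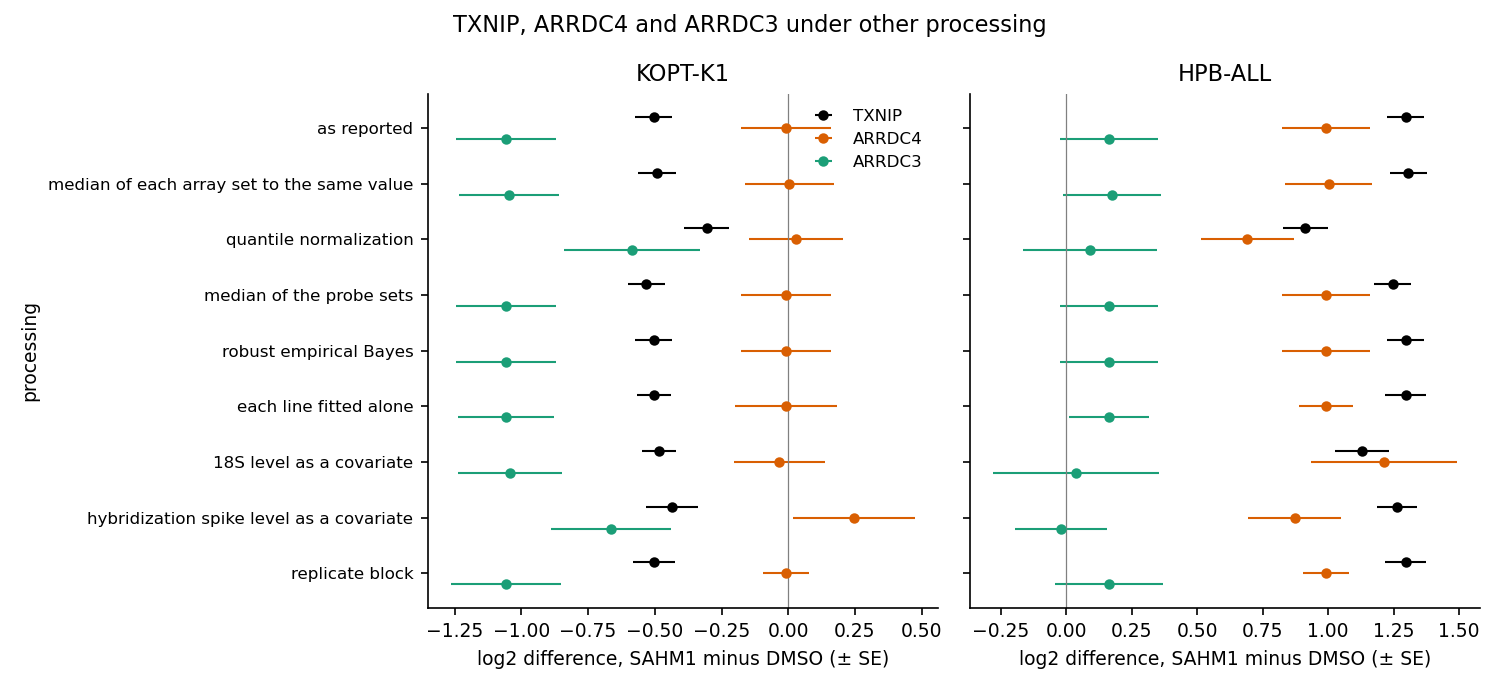
Log2 difference, SAHM1 minus DMSO, ± SE (x axis) for TXNIP, ARRDC4 and ARRDC3 under 9 ways of processing (y axis), in KOPT-K1 (left) and HPB-ALL (right). TXNIP stays between -0.53 and -0.31 in KOPT-K1 and between 0.91 and 1.31 in HPB-ALL; ARRDC3 in KOPT-K1 moves to -0.59 under quantile normalization and -0.66 with the spike covariate.

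Genes around the members in the same pathway were read from 8 lists with 117 different genes, of which 106 were measured by probe sets with 1 symbol. Of these, 4 rose and 27 fell in KOPT-K1 (29.2% called against 19% of all genes, median difference -0.04 against 1.99e-05), and 9 rose and 23 fell in HPB-ALL (30.2% against 9.34%, median -0.08 against -0.02). The response differed between lines for 28 (26.4% against 16.8% of all genes), higher in HPB-ALL for 15 and lower for 13, where over all genes 11.4% were higher and 5.41% lower. These counts moved with the processing: 4 of the 31 KOPT-K1 calls (BHLHE40, HK2, MYC and SLC2A3) were left after quantile normalization and 9 with the spike covariate. Of the 32 HPB-ALL calls, 2 (HK2 and PFKFB3) were left with the 18S covariate. The 18S level in HPB-ALL and the spike level in KOPT-K1 did not overlap between SAHM1 and DMSO arrays. These covariate fits therefore cannot tell SAHM1 from the covariate. The sizes moved less than the calls in HPB-ALL: of the 23 called list genes named below, 16 stayed within 1.5 times their value with the 18S covariate (MYC at -0.58, GPI at -0.51 and LDHA at -0.44), and 7 did not. In KOPT-K1, 21 of 24 stayed within it with the spike covariate, and 4 of 24 after quantile normalization, where the median ratio to the fitted value was 0.595. The lists were chosen with results of these arrays known, and the adjusted p-values that follow are limma's with Benjamini-Hochberg adjustment over all genes.

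Of 20 other known or proposed targets of MondoA and ChREBP, 0 rose in either line, 5 fell in KOPT-K1 (25%) and 8 fell in HPB-ALL (40%), with median differences of -0.04 and -0.17. Their levels cannot be read on this scale, so some of the 20 may be too weakly expressed to show a change. BHLHE40, a clock-related repressor also driven by hypoxia and T-cell activation, changed by -1.02 ± 0.08 in KOPT-K1 (adjusted p = 7.43e-06). Its change in HPB-ALL was -0.60 ± 0.08 (adjusted p = 9.28e-04). PFKFB3, which makes the activator of phosphofructokinase, changed by -0.61 ± 0.11 (adjusted p = 0.0030) and by -1.28 ± 0.11 (adjusted p = 5.94e-05). Between the lines (HPB-ALL minus KOPT-K1) the response differed by -0.67 ± 0.16 (adjusted p = 0.0128). LDHA, lactate dehydrogenase, changed by -0.46 ± 0.05 in HPB-ALL (adjusted p = 3.16e-04) and stood at -0.10 ± 0.05 in KOPT-K1. Several of these genes also answer to MYC and to hypoxia-inducible factors.

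The MYC, MAX and MLX network shares DNA sites and partners with MondoA. In KOPT-K1, 1 of its 10 measured genes rose and 5 fell (60%, median -0.19), and in HPB-ALL 2 rose and 2 fell (40%, median -0.04). MYC, known to compete with MondoA for the TXNIP promoter in other cells, changed by -0.69 ± 0.07 (adjusted p = 6.16e-05) and by -0.65 ± 0.07 (adjusted p = 2.18e-04). MXD1, a repressor that competes with MYC for MAX, was called in both lines with opposite signs. It stood at -0.28, -0.23 and -0.43 with SAHM1 in KOPT-K1. In HPB-ALL it stood at 0.52, 0.48 and 0.54. It changed by -0.31 ± 0.07 in the former (adjusted p = 0.0106) and 0.52 ± 0.07 in the latter (adjusted p = 9.28e-04), and the difference between lines was 0.82 ± 0.10 (adjusted p = 3.21e-04). MXI1, another MAX-binding repressor, changed in KOPT-K1 by -0.53 ± 0.12 (adjusted p = 0.0100) and stood at 0.10 ± 0.12 in HPB-ALL. MNT, a further one, changed in KOPT-K1 by -0.34 ± 0.06 (adjusted p = 0.00148) and stood at -0.11 ± 0.06 in HPB-ALL. MLXIPL, which encodes ChREBP, stood at 0.16 ± 0.14 and -0.02 ± 0.14; the KOPT-K1 value came from SAHM1 replicate 2, at 0.61 against 0.01 and -0.15, and was -0.07 without it. MAX in HPB-ALL (-0.23 ± 0.06, adjusted p = 0.0431) and MXD3 in HPB-ALL (0.27 ± 0.08, adjusted p = 0.0444) lost their calls in 8 and 10 of the 12 fits that left out 1 array, and MAX was at -0.04 without the suffix probe sets.

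The ligases that alpha-arrestins recruit, and their adaptors, were called in 5 of 11 cases in KOPT-K1 (1 higher and 4 lower, 45.5%, median -0.14) and in 1 of 11 in HPB-ALL (9.09%, median 6.94e-04). NEDD4, the founding ligase of the family, stood at 0.16, 0.25 and 0.25 with SAHM1 in HPB-ALL, and at -0.54, -0.69 and -0.64 in KOPT-K1. It changed by -0.62 ± 0.07 in KOPT-K1 (adjusted p = 1.28e-04), was 0.22 ± 0.07 in HPB-ALL (adjusted p = 0.0683) and differed between lines by 0.84 ± 0.10 (adjusted p = 2.39e-04). ITCH, a ligase that acts on TXNIP itself, changed in KOPT-K1 by -0.58 ± 0.12 (adjusted p = 0.00731) with its 6 probe sets from -1.38 to 0.03, and the difference between lines was 1.02 ± 0.18 (adjusted p = 0.00241). In HPB-ALL it was 0.45 ± 0.12 (adjusted p = 0.0413), a call lost in 9 of the fits without 1 array, and it was at 0.27 without the suffix probe sets and 0.02 with the 18S covariate. WWP1 (-0.30 ± 0.08, adjusted p = 0.0157) and HECW1 (0.28 ± 0.08, adjusted p = 0.0332), further ligases, were called in KOPT-K1 and lost the call in 3 and 4 of the 12 fits; HECW1 was at 0.16 as the median of its probe sets. NEDD4L, another ligase of the family, stood at -0.12 ± 0.07 and -0.06 ± 0.07. Of the 21 named list genes whose response differed between lines, MXD1 and NEDD4 passed the threshold in every alternative run, and the other 19 missed it in at least 1.

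The thioredoxin system, the redox pathway that TXNIP inhibits, had 1 gene higher of 12 in KOPT-K1 (8.33%, median 0.05) and 3 lower in HPB-ALL (25%, median -0.20). TXN, thioredoxin itself, stood at 0.06 ± 0.10 and -0.13 ± 0.10, and TXNRD1, its cytosolic reductase, at 0.04 ± 0.06 and -0.21 ± 0.06 (adjusted p = 0.0661). PRDX1 and PRDX4, peroxidases that draw on thioredoxin, changed in HPB-ALL by -0.43 ± 0.05 (adjusted p = 5.64e-04) and -0.32 ± 0.06 (adjusted p = 0.00839). They stood at 0.08 ± 0.05 and 0.11 ± 0.06 in KOPT-K1, and the differences between lines were -0.50 ± 0.08 (adjusted p = 0.00112) and -0.43 ± 0.09 (adjusted p = 0.00715). TXN2, the mitochondrial thioredoxin, was -0.22 ± 0.05 in HPB-ALL (adjusted p = 0.0207), a call lost in 4 of the 12 fits without 1 array, and it was at -0.00486 without the suffix probe sets (adjusted p = 0.980). GLRX, glutaredoxin, rose in KOPT-K1 by 0.43 ± 0.06 (adjusted p = 4.10e-04) and stood at -0.15 ± 0.06 in HPB-ALL, with a difference of -0.58 ± 0.08 (adjusted p = 7.65e-04).

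Of 17 genes of glucose entry and its first steps, 6 fell in KOPT-K1 (35.3%, median -0.17) and 8 in HPB-ALL (47.1%, median -0.16), 0 rose in either line, and the others did not pass the threshold. SLC2A3, a high-affinity glucose transporter, changed by -0.57 ± 0.06 (adjusted p = 9.28e-05) and -0.34 ± 0.06 (adjusted p = 0.00455). SLC2A1, the glucose transporter that TXNIP draws from the membrane, stood at -0.17 ± 0.08 (adjusted p = 0.141) and -0.16 ± 0.08 (adjusted p = 0.268), with its 2 probe sets on opposite sides of 0 in each line. HK2, which makes the glucose-6-phosphate that MondoA senses, changed by -0.89 ± 0.08 (adjusted p = 2.06e-05) and -0.65 ± 0.08 (adjusted p = 5.20e-04). GPI, the next enzyme, changed by -0.40 ± 0.08 (adjusted p = 0.00370) and -0.62 ± 0.08 (adjusted p = 5.24e-04). HK1, the broadly expressed hexokinase, changed by -0.36 ± 0.08 (adjusted p = 0.00825) and was -0.31 ± 0.08 in HPB-ALL (adjusted p = 0.0302), the latter lost in 5 of the 12 fits. HK2 and PFKFB3 are counted in this list and among the MondoA targets.

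The remaining arrestin-fold genes were called in 1 of 7 cases in each line (14.3%), with medians of -0.05 and -0.13. That gene was ARRB1, beta-arrestin 1, at -0.26 ± 0.07 (adjusted p = 0.0275) and -0.28 ± 0.07 (adjusted p = 0.0325), calls lost in 4 and 5 of the 12 fits without 1 array. ARRDC1, an alpha-arrestin of extracellular vesicle budding, stood at -0.05 ± 0.08 and -0.26 ± 0.08 (adjusted p = 0.0762).

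TXNIP is also a target of FOXO factors and of the glucocorticoid receptor, and the list of their genes had 6 falls and 0 rises among 19 in KOPT-K1 (31.6%, median -0.08) and 5 rises and 1 fall in HPB-ALL (31.6%, median 0.12). The response was higher in HPB-ALL for 8 and lower for 1. FOXO3 changed in KOPT-K1 by -0.37 ± 0.07 (adjusted p = 0.00296), stood at 0.14 ± 0.07 in HPB-ALL and differed by 0.51 ± 0.10 (adjusted p = 0.00394). KLF6, a zinc-finger factor, changed in KOPT-K1 by -0.37 ± 0.06 (adjusted p = 0.00100) and differed between lines by 0.63 ± 0.08 (adjusted p = 4.41e-04). In HPB-ALL it rose by 0.26 ± 0.06 (adjusted p = 0.0144), a call lost without DMSO replicate 3 or without SAHM1 replicate 3 of that line (adjusted p up to 0.0657), and it was at 0.10 without the suffix probe sets. KLF2, a factor of T-cell quiescence, changed in HPB-ALL by -0.43 ± 0.07 (adjusted p = 0.00174), with its 2 probe sets at -0.95 and 0.09. CCNG2, a FOXO target of the cell cycle, was 0.25 ± 0.06 in HPB-ALL (adjusted p = 0.0144), lost in 3 of the 12 fits. CDKN1B, the cell-cycle inhibitor p27, rose in HPB-ALL by 0.31 ± 0.06 (adjusted p = 0.00475) and stood at -0.04 ± 0.06 in KOPT-K1. TSC22D3 and FKBP5, classic glucocorticoid receptor targets, changed in KOPT-K1 by -0.33 ± 0.06 (adjusted p = 0.00356) and -0.42 ± 0.07 (adjusted p = 0.00155) and stood at 0.06 ± 0.06 and -0.03 ± 0.07 in HPB-ALL. TSC22D3 was called in 1 of its 3 probe sets, which ran from -0.80 to -0.00. FOXO1 stood at -0.04 ± 0.07 and -0.08 ± 0.07.

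Of 12 genes for kinases that phosphorylate TXNIP or sense energy, or for their subunits and partners, 3 were called in each line (25%). In each line 1 was higher and 2 were lower, with medians of 0.05 and -0.11. PRKAB2, a regulatory subunit of AMPK, had opposite signs in the lines: it rose in HPB-ALL by 0.50 ± 0.09 (adjusted p = 0.00469), was -0.36 ± 0.09 in KOPT-K1 (adjusted p = 0.0156) and differed by 0.86 ± 0.13 (adjusted p = 0.00109). The KOPT-K1 call was lost without DMSO replicate 2 or SAHM1 replicate 2 (adjusted p up to 0.0577). PRKAA1, a catalytic subunit of AMPK, was -0.31 ± 0.08 in KOPT-K1 (adjusted p = 0.0197), lost in 3 of the fits without 1 array, and 0.11 ± 0.08 in HPB-ALL. AKT1, the kinase downstream of phosphoinositide 3-kinase, changed in HPB-ALL by -0.50 ± 0.10 (adjusted p = 0.00671) and stood at 0.03 ± 0.10 in KOPT-K1. RPTOR, the mTORC1 scaffold, was -0.61 ± 0.14 in HPB-ALL (adjusted p = 0.0198; lost in 4 fits) and PRKAG3, an AMPK subunit, 0.43 ± 0.14 in KOPT-K1 (adjusted p = 0.0474; lost in 8). PRKAG3 stood at 0.80 on SAHM1 replicate 2 against 0.22 and 0.25, and its difference was 0.24 without that array. With the 18S covariate, RPTOR was at -0.25, AKT1 at -0.27 and PRKAB2 at 0.22 in HPB-ALL.

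**Figure D4:**
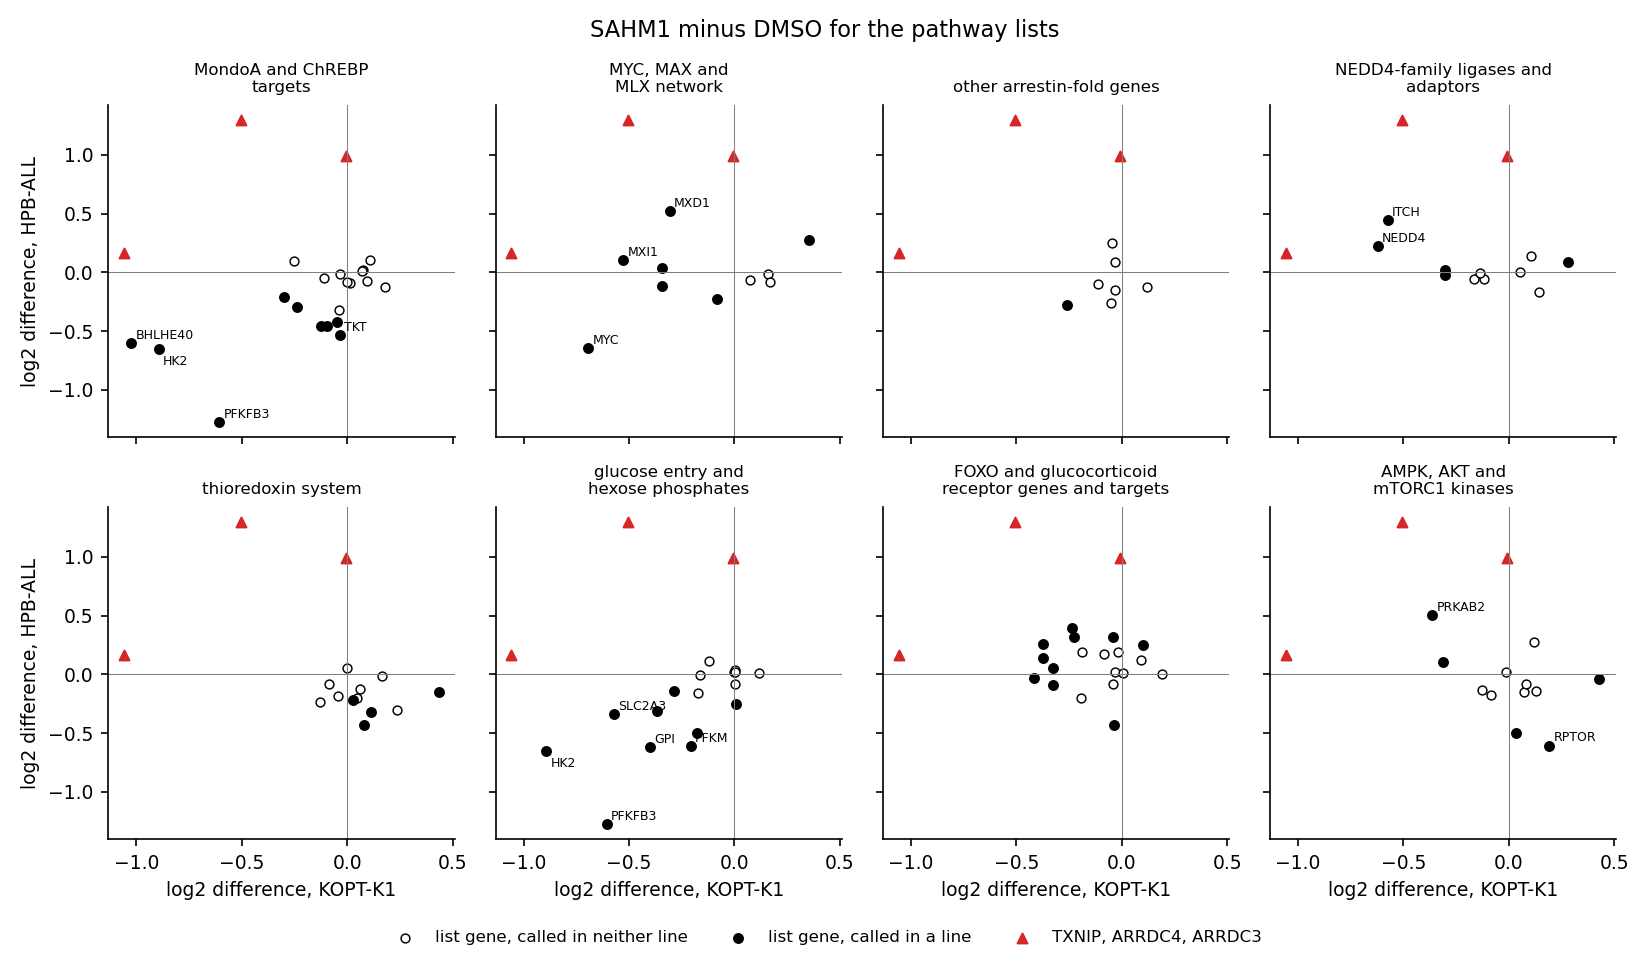
Log2 difference, SAHM1 minus DMSO, in KOPT-K1 (x axis) and HPB-ALL (y axis) for the measured genes of 8 lists, with 1 panel per list; filled points are genes called in at least 1 line, open points genes called in neither, and triangles repeat TXNIP, ARRDC4 and ARRDC3 in each panel. No glucose gene was higher past the threshold in either line, and MXD1 is at -0.31 and 0.52, in the upper left with TXNIP.

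The genes whose values over the 12 arrays were most like those of TXNIP were ranked by Pearson's r among 19774 genes; the arrays fall into 4 groups that share their treatment, so r is a description. The highest were OARD1 (0.992), CEP57 (0.988), EGR1 (0.987), RFLNB (0.987) and MYEF2 (0.986). RFLNB stood between -0.51 and -0.41 on the SAHM1 arrays of KOPT-K1 and between 0.70 and 0.80 on those of HPB-ALL. EGR1, an immediate early transcription factor, stood between -0.38 and -0.20 and between 0.63 and 0.72 on the same arrays. All 5 were lower with SAHM1 in KOPT-K1 (differences of -0.47 to -0.12) and higher in HPB-ALL (0.35 to 0.77). Their choice by r implies these directions. Each moved less than TXNIP.

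The lowest r belonged to COX6B1 (-0.991), HSPE1 (-0.988), SLIRP (-0.987), MRPL15 (-0.985) and MRPS7 (-0.985). COX6B1 is a respiratory chain subunit, HSPE1 the mitochondrial co-chaperonin, SLIRP a mitochondrial RNA-binding protein, and MRPL15 and MRPS7 are mitochondrial ribosomal proteins. They were higher with SAHM1 in KOPT-K1 (0.08 to 0.22) and lower in HPB-ALL (-0.47 to -0.30), directions that their choice by r implies too. Among the members, r with TXNIP was 0.869 for ARRDC4 (rank 856), 0.635 for ARRDC3 (rank 3149), -0.477 for MLXIP, -0.621 for ARRDC2 and -0.849 for MLX.

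**Figure D5:**
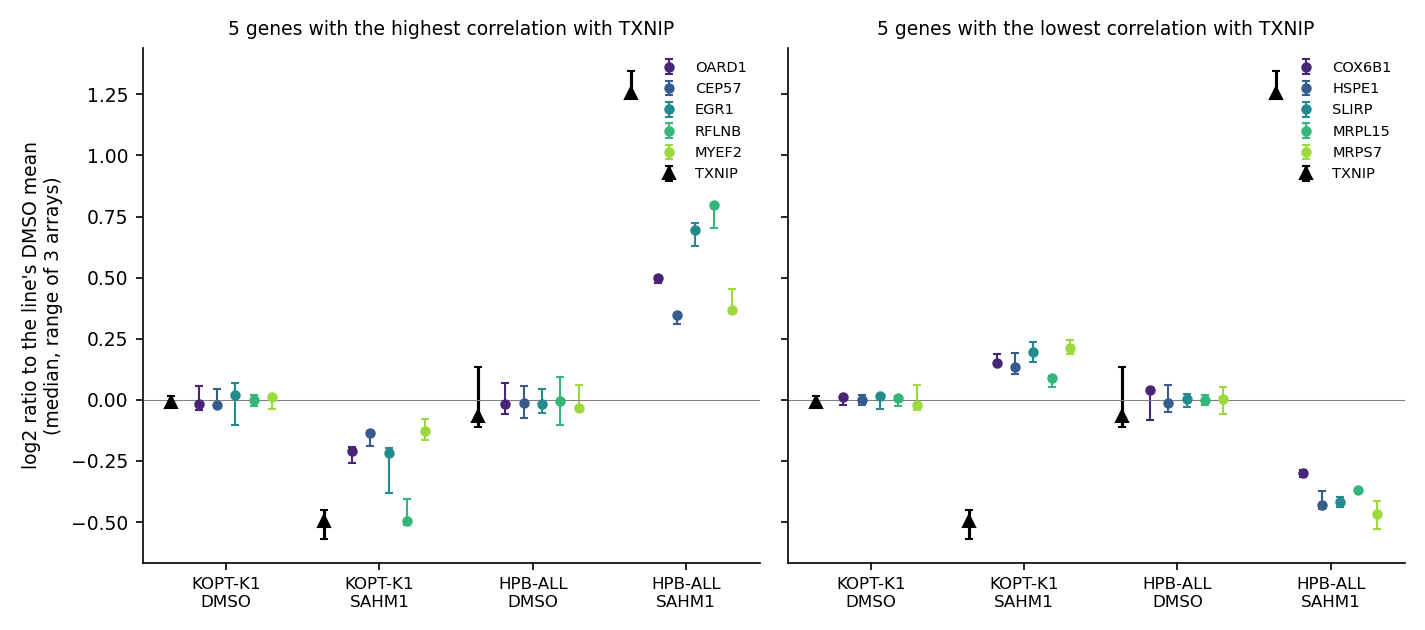
Log2 ratio to the DMSO mean of the line (y axis; point, median; bar, range of 3 arrays) by line and treatment (x axis) for the 5 genes with the highest (left) and the 5 with the lowest (right) correlation with TXNIP, shown as triangles in both panels. The left genes are below 0 in KOPT-K1 and above 0 in HPB-ALL with SAHM1, and the right genes the reverse, with smaller changes than TXNIP.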

How the data were processed

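Biotin-labelled RNA from 12 cultures was hybridized to Affymetrix human arrays with 54675 probe sets. The submitters' processing notes name RMA, with no version given in the sources used here. Each deposited value is a linear ratio made by the authors: the 3 DMSO arrays of each line averaged 1 (within 1e-06) in every probe set. They ran from 0.0827 to 6.98. The log2 of each ratio was taken without a pseudocount. A filter on low values needs levels, so none was applied. Arrays have no read depth; the number of arrays limits precision, with a median standard error of 0.08.

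The platform annotation gave 1 symbol for 41097 probe sets, several for 1801 and none for 11777. The probe sets that shared a single symbol were averaged on the log2 scale, giving 19775 genes. Models from limma 3.58.1 (lmFit, eBayes; R 4.3.3) were fitted to all 12 arrays with 4 groups, without a block (8 residual degrees of freedom, 12.6 after moderation), and tested on simulated data. Genes were called at a Benjamini-Hochberg adjusted p under 0.05, two-sided, over all genes.

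The members and the lists were chosen with earlier results of these data known. The members' side of the threshold is therefore given as a description, without a p-value. Named were the members, up to 3 called genes per list, line and direction by smallest p, a set always named, and the 5 genes most and least like TXNIP. Of 117 list genes, 11 have no probe set with 1 symbol. Upstream windows came from RefSeq (GRCh38.p14; 6 of 6 members matched, 35116 windows). Proteins were not analysed here. Alternatives were centring, quantile normalization, suffix and median probe sets, robust moderation, lines fitted alone, 18S as a covariate, a replicate block, leaving out each array and, chosen after seeing the data, the spike level as a covariate. No 2 arrays held identical values, and 0 columns were left unused.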

Additional observations from a re-analysis of the deposited data

Results flagged for a closer look

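TXNIP stood out because every SAHM1 array moved down in KOPT-K1 and up in HPB-ALL, with a difference between lines of 1.80, which was not tested because the gene was chosen on it. Among the named list genes, limma's test of the difference (HPB-ALL response minus KOPT-K1 response, Benjamini-Hochberg adjusted over all genes) passed the threshold for 21. Over all genes, 16.8% passed it. Many of the named genes were picked for a small p in 1 line, so the 21 are not read against that share. The response was higher in HPB-ALL for ITCH (1.02), PRKAB2 (0.86), NEDD4 (0.84), MXD1 (0.82), MXI1 (0.63), KLF6 (0.63), FOXO3 (0.51), BHLHE40 (0.42), PRKAA1 (0.42), TSC22D3 (0.38), FKBP5 (0.38) and CDKN1B (0.36). It was lower in HPB-ALL for RPTOR (-0.80), PFKFB3 (-0.67), GLRX (-0.58), AKT1 (-0.53), PRDX1 (-0.50), PRDX4 (-0.43), KLF2 (-0.39), LDHA (-0.36) and TXN2 (-0.25). A difference between lines did not always mean opposite signs. BHLHE40 (-1.02 in KOPT-K1 and -0.60 in HPB-ALL) and PFKFB3 (-0.61 and -1.28) fell in both lines. Of these 21 differences, 17 kept their side of the threshold whichever array was left out, 5 after quantile normalization, 4 with the spike covariate and 3 with the 18S covariate. The 4 lost when 1 array was left out were BHLHE40, MXI1, PRKAA1 and TXN2, in 6, 5, 7 and 10 of the 12 fits. The size stayed within 1.5 times for 14 of the 21 after quantile normalization, 17 with the 18S covariate and 18 with the spike covariate. FOXO3 was at 0.50 and 0.56 with the 18S and spike covariates and PRDX1 at -0.49 and -0.50, whereas BHLHE40 was at 0.03 after quantile normalization.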

How the results depend on the processing

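Genes called in KOPT-K1 numbered 3761, and 136 after quantile normalization (25 higher, 111 lower), 2498 once suffix probe sets (_s_at, _x_at) were dropped, and 776 with the spike covariate. In HPB-ALL they numbered 1846, and 417 after quantile normalization (138 higher, 279 lower), 1019 without those probe sets (645 higher, 374 lower), 52 with the 18S covariate, 1056 with the spike covariate and 913 to 2012 without 1 array. For the difference between lines they numbered 3323, and 211 (quantile), 324 (18S) and 266 (spikes). Pathway genes called in KOPT-K1 numbered 31, and 4 (quantile), 16 (suffix), 10 (spikes) and 20 to 31 without 1 array, the lowest without KOPT-K1 DMSO replicate 2. In HPB-ALL they numbered 32, and 15 (quantile), 13 (suffix), 2 (18S) and 19 to 33 without 1 array, the lowest without HPB-ALL SAHM1 replicate 3. Quantile normalization narrows the SAHM1 arrays and widens the DMSO arrays by construction. Before it, the SD of log2 ratios in KOPT-K1 was 0.301 to 0.319 with SAHM1 and 0.119 to 0.130 with DMSO. In HPB-ALL the 18S level was -1.65 to 1.05 with DMSO and 1.35 to 1.89 with SAHM1. In KOPT-K1 the spike level was -0.02 to 0.02 with DMSO and 0.56 to 0.98 with SAHM1. Where treatment and covariate go together like this, a fit with the covariate separates the 2 only through the spread within groups, and imprecisely. The causes of these and the other shifts were not tested. TXNIP was -0.31 (quantile) in KOPT-K1, and 0.91 (quantile) and 1.13 (18S) in HPB-ALL; no sign of a member's leading difference turned. Without the suffix probe sets, 4 named values changed sign: KLF2 in HPB-ALL (0.090) and the differences between lines of KLF2 (0.069), TSC22D3 (-0.10) and TXN2 (0.012). None of these 4 passed the threshold in that fit. Same-numbered arrays of a line correlated in their deviations from the group mean by -0.05 to 0.07, and differently numbered ones by -0.08 to 0.06. The sample labels do not say whether same-numbered cultures were set up together, and these correlations cannot show it. With the replicate number as a block, 3071, 1261 and 2616 genes were called in the order above. The pathway genes called were then 26 and 25, and TXNIP was -0.50 and 1.30.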

Other observations

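The paired sites seen upstream of TXNIP occur upstream of 15 other genes, of which 14 were measured. In KOPT-K1, 5 of these 14 were called against 19% of all genes (limma, Benjamini-Hochberg adjusted p under 0.05): GFPT1, the first enzyme of hexosamine synthesis (-0.42), TIGD1 (-0.50), AKAP10 (-0.24), P4HA1 (-0.20) and ATP5ME (0.24). In HPB-ALL, 2 of the 14 were called against 9.34% of all genes, P4HA1 at -0.43 and ATP5ME at -0.25. With so few genes these counts are not read against those shares. STX12 stood at -0.22 and 0.24 in the 2 lines, with neither called. These genes were chosen after the TXNIP window had been read.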
